A study of Mus musculus with 6 samples.

Results

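Small nucleolar RNA (snoRNA) host genes are genes whose introns carry snoRNAs. They were described here in brain RNA of Sgo1-/+ and wild-type (WT) mice around AA465934, a noncoding host gene on chromosome 11 that holds Snord7. The hosts named for the comparison were AA465934, Gas5, Snhg1, Snhg3, Snhg5, Snhg6, Snhg8, Snhg11 and Snhg12. Of these 9 names, 5 equalled a gene symbol among the 38087 genes measured. Snhg5 was found by its Ensembl gene ID, since the deposited table calls that gene CT025673.1, so 6 hosts had values. Snhg1, Snhg6 and Snhg8 were not analysed here. All 6 hosts with values passed the filter on low counts, which left 16337 genes. AA465934 was selected on its difference between Sgo1-/+ and WT in these same libraries, so its values in that comparison are a description without a test. The other hosts were chosen by name, to ask whether they moved with it.

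RNA-seq was done on the brains of 3 WT and 3 Sgo1-/+ animals, and each library came from a different mouse. All mice were of the C57BL6 background, untreated and 24 months old. Sgo1-/+ mice carry 1 working copy of Sgo1 in every cell. Sgo1, shugoshin 1, protects the cohesion of sister chromatids at centromeres. WT replicate 1 and Sgo1-/+ replicate 2 were male and the other 4 mice female. The WT libraries came from sequencing run 258 and the Sgo1-/+ libraries from run 259, so the effect of genotype and that of the run cannot be told apart. Total estimated counts ranged from 11123917 to 12505561 per library. Sgo1 itself had estimated counts of 0, 7 and 0 in WT and of 4, 2 and 0 in Sgo1-/+, too few to check the genotypes.

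By the methods, the RNA came from the cerebrum, and hindbrain and olfactory bulb tissue was not part of it. WT replicate 1 stood apart from that description. The 8 cerebrum markers summed to 1483.5 normalized counts in it, against 5093 to 6612 in the other libraries, and 12 of 13 cerebellar and 12 of 12 brain stem markers were highest there. Brain stem markers summed to 2010 normalized counts in that library and to between 26.0 and 44.8 in the others. Olfactory bulb markers summed to 3334 in WT replicate 1, to 5500 and 4905 in the other WT libraries and to between 2576 and 3946 in Sgo1-/+. Oligodendrocyte markers summed to 140899 in WT replicate 1, to 53401 and 58249 in the other WT libraries and to between 75552 and 132920 in Sgo1-/+. Without WT replicate 1, olfactory bulb markers were thus higher and oligodendrocyte markers lower in each WT library than in every Sgo1-/+ library. The fold changes of the named hosts and of the genes named from the lists below are therefore also given without WT replicate 1. In bulk tissue, fewer cells of a type and less RNA per cell cannot be told apart.

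In a host gene, the snoRNA is cut out of the intron after splicing and trimmed, and the joined exons remain as a separate RNA. C/D box snoRNAs, named after 2 short conserved motifs, guide the methylation of the ribose in ribosomal RNA, while H/ACA box snoRNAs guide the change of uridine to pseudouridine. The exons of many noncoding hosts code for no long protein, and their spliced RNAs are often short-lived because translation exposes them to nonsense-mediated decay. Many snoRNA hosts belong to the class of genes whose transcripts start with a run of pyrimidines, as ribosomal protein genes do.

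AA465934 (ENSMUSG00000093483) spans chr11:83291699-83294632 on the plus strand of mm10 (GRCm38). GENCODE lists 5 transcripts for it, of which 3 are long intergenic noncoding RNAs and 2 retain an intron, and its merged exons cover 711 bases. Snord7 lies at chr11:83294304-83294400 on the same strand. It sits in intron 2, which is 2417 bases long, with 2206 bases between exon 2 and Snord7 and 114 bases between Snord7 and exon 3. It shares no base with an annotated exon of AA465934, those of the intron-retaining transcripts included.

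**Figure D1:**
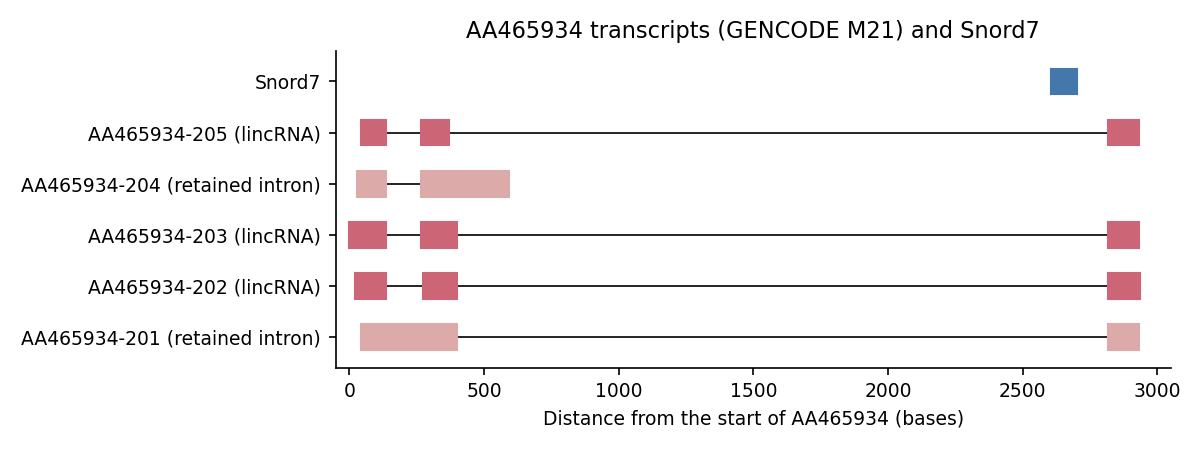
Map of the AA465934 transcripts and Snord7. The x axis gives the distance from the start of AA465934 in bases, boxes are exons or the snoRNA, and lines are introns. Snord7 lies between exons 2 and 3 of the 3 lincRNA transcripts.

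The sequences below show what AA465934 carries beside a C/D box snoRNA of 3 of the other hosts. They were taken from the GENCODE transcripts of the same build. The capitals mark the C box motif TGATGA near the 5′ end and the last D box motif CTGA near the 3′ end.
Snord7 (AA465934, chr11:83294304-83294400, plus strand): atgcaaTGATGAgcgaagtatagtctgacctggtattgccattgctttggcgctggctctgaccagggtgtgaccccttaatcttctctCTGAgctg
Snord47 (Gas5, chr1:161038082-161038158, plus strand): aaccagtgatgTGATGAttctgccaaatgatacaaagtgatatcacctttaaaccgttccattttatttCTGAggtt
Snord50a (Snhg5, chr9:88521529-88521600, minus strand): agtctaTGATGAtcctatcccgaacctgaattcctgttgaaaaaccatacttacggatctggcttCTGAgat
Snord99 (Snhg12, chr4:132310691-132310764, plus strand): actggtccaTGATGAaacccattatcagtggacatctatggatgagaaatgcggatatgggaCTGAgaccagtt
Snord7 is 97 bases long and the 3 others are 72 to 77 bases long. Between the box motifs the 4 sequences differ, and that stretch holds the guide part of such RNAs.

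The count of AA465934 is for the gene as a whole, and spliced and intron-retaining RNAs were not told apart: 328 of the 711 exon bases are not in the spliced transcript AA465934-203. The transcript AA465934-203 has 3 exons of 135, 131 and 117 bases. Its bases 131 to 383 are shown because they hold both junctions, the second of which is where the intron with Snord7 was removed. The capitals mark the 10 bases across each exon junction.
AA465934-203, bases 131 to 383: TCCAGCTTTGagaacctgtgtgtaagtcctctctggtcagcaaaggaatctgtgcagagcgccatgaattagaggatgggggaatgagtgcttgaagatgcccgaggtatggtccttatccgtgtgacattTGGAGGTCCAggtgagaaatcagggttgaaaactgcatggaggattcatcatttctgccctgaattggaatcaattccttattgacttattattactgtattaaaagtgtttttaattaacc
The joined RNA is 383 bases long with a G and C content of 49.6%. The letters ATTAAA, a variant of the polyadenylation signal, start at base 361 and end 17 bases before the end of the transcript.

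AA465934 was higher in Sgo1-/+ brains than in WT brains. Normalized counts, which are estimated counts scaled to a common library size, were 51.5, 28.9 and 22.3 in the WT libraries and 139, 103 and 124 in the Sgo1-/+ libraries, in the order of the replicate numbers here and in all lists of library values. Every Sgo1-/+ library was above every WT library, and the highest WT value was that of WT replicate 1. The means were 34.2 ± 15.3 in WT and 122 ± 18.0 in Sgo1-/+ (SD, n = 3 each), a 3.56-fold difference. The fitted log2 fold change was 1.84 (SE 0.338). Without WT replicate 1, the library with cerebellar and brain stem RNA, the WT mean was 25.6 and the log2 fold change 2.26 (SE 0.269). Without that library, the sums of oligodendrocyte and olfactory bulb markers also did not overlap between the groups, and their part in the difference was not tested. AA465934 shares no exon bases with another annotated gene.

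Gas5, the host of 9 snoRNA genes with values here, was first known as a transcript of growth-arrested cells. Its normalized counts were 1157, 1251 and 808 in WT and 1163, 1040 and 1028 in Sgo1-/+. The groups overlapped, and WT replicate 3 held the lowest value and WT replicate 2 the highest. The means were 1072 ± 234 and 1077 ± 75.1 (SD, n = 3 each), and the log2 fold change was 0.01 (SE 0.174, 95% interval −0.41 to 0.42). Gas5 did not pass the edgeR quasi-likelihood test (unadjusted p = 0.972, adjusted p = 0.9999).

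Snhg11, which holds 2 snoRNA genes with values and which the annotation types as protein-coding, had by far the highest counts of the 6 hosts. Its normalized counts were 15635, 18000 and 13294 in WT and 13775, 15356 and 15165 in Sgo1-/+. All 3 Sgo1-/+ values lay between the lowest and the highest WT value. Its log2 fold change was −0.08 (SE 0.156, 95% interval −0.45 to 0.29), and the edgeR quasi-likelihood test gave an unadjusted p of 0.609.

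Snhg12 holds 3 H/ACA box snoRNA genes and Snord99. Its normalized counts were 130, 233 and 134 in WT and 185, 170 and 138 in Sgo1-/+. WT replicate 2 stood above the other 5 libraries. Its log2 fold change was fitted at −0.02 (SE 0.266, 95% interval −0.65 to 0.61), and the unadjusted p was 0.939 in the edgeR quasi-likelihood test.

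Snhg5, the host of Snord50a and Snord50b, had normalized counts of 92.1, 113 and 56.1 in WT and of 63.9, 67.7 and 117 in Sgo1-/+. Its highest and its lowest value came from different genotypes, and the groups overlapped over most of their range. Its log2 fold change was fitted at −0.07 (SE 0.352, 95% interval −0.91 to 0.76), and its unadjusted p was 0.842 in the edgeR quasi-likelihood test.

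Snhg3 holds Snora73a and Snora73b. It had the lowest counts of the 6 hosts, with 12.54, 15.3 and 8.99 in WT and 13.8, 6.18 and 7.84 in Sgo1-/+. Its log2 fold change was fitted at −0.37 (SE 0.439, 95% interval −1.41 to 0.67), and its unadjusted p was 0.430 in the edgeR quasi-likelihood test. The value is uncertain, since 135 bases of its exons (13.7%) are shared with Rcc1 on the same strand and 705 bases (71.5%) lie opposite exons of Gm17300, and whether strand was used in the counting is not given in the sources used here. Rcc1, the exchange factor of the GTPase Ran, was fitted at −0.06 (log2 fold change, SE 0.151), and Gm17300 at −0.51 (SE 0.424).

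**Figure D2:**
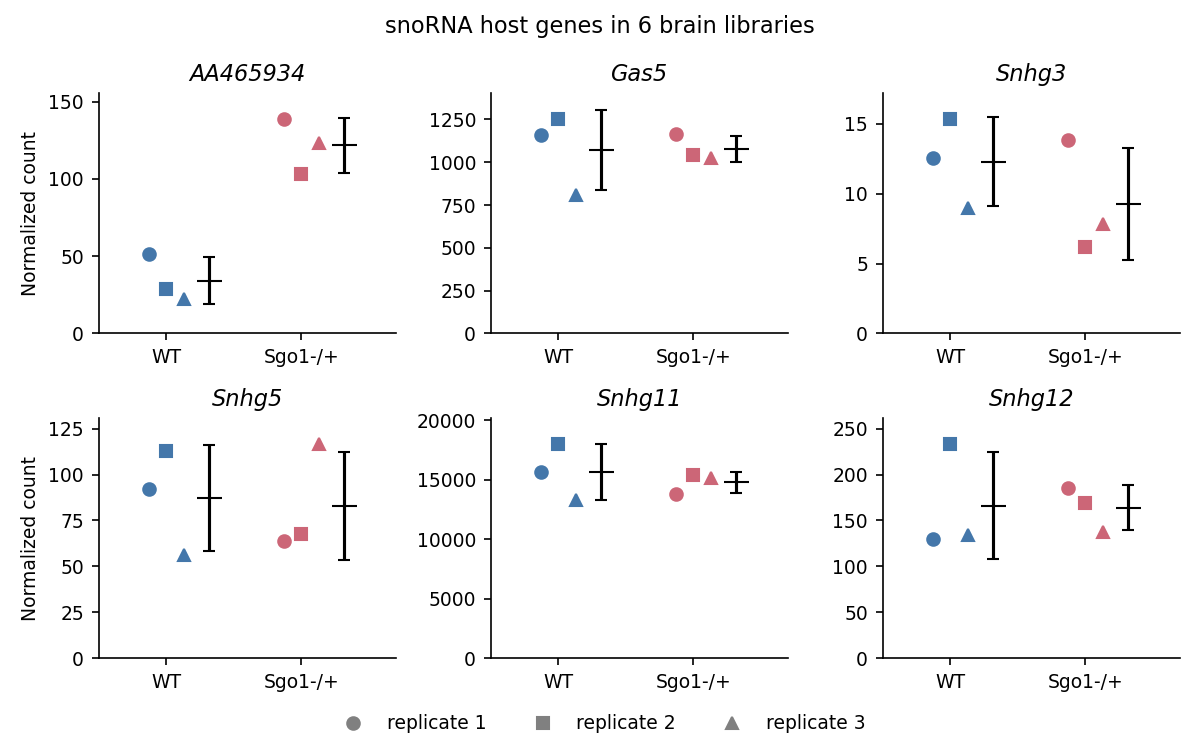
Normalized counts of the 6 hosts in the WT and Sgo1-/+ libraries. Each symbol is 1 library with its shape giving the replicate number, and the black line with bars is the group mean and SD (n = 3). The groups are apart for AA465934 and overlap for the 5 other hosts.

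Among the 5 other hosts, none had an unadjusted p under 0.05 and none passed after adjustment by edgeR's quasi-likelihood test. Over all genes tested, 2.04% had an unadjusted p under 0.05 and 0.0% passed after adjustment. The groups overlapped in 5 of 5 hosts, while they did not overlap in 6.85% of all genes. The log2 fold change was negative in 4 hosts and positive in 1, with a median of −0.07, against −0.0007 over all genes tested. The 95% intervals of the 5 reached from −1.41 (Snhg3) to 0.76 (Snhg5). The count of 0 among the 5 hosts was also obtained by DESeq2, by edgeR's likelihood ratio test, by limma, and without each library in turn. Without WT replicate 1, the log2 fold changes were 0.06 for Gas5, −0.08 for Snhg11, −0.17 for Snhg12, −0.03 for Snhg5 and −0.37 for Snhg3. Each of these 5 was smaller than its SE in that fit.

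The snoRNA genes within these hosts were nearly without counts. Snord7 had estimated counts of 1.79, 4.10 and 1.37 in WT and of 4.35, 0.848 and 2.18 in Sgo1-/+. These values are near the limit of 3 counts that a 0 would allow, so no order was read from them, and a difference in Snord7 was not detectable at this depth. Of the 20 snoRNA genes with values in the 6 hosts, 0 passed the filter on low counts and 4 exceeded 3 counts in at least 1 library. The highest value was 10.9, for Gm25129 in Snhg11. The library kit selects RNA with a poly(A) tail, which mature snoRNAs lack. Most of these snoRNA genes, though not Snord7, also overlap an annotated exon of their host. How reads there were divided between the 2 genes is not given in the sources used here. The causes of the low counts were not tested.

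Levels of different genes were compared as normalized counts per kilobase of merged exons. Averaged over the 6 libraries, the order was Snhg11 (1784), Gas5 (286), AA465934 (110), Snhg12 (68.7), Snhg5 (49.1) and Snhg3 (10.9). The place of AA465934 in this order differed between the WT and the Sgo1-/+ libraries, which restates the difference on which it was selected. In WT, its level of 48.2 ± 21.6 per kilobase did not differ beyond the spread from Snhg12 (69.1 ± 24.3) or Snhg5 (50.3 ± 16.7; SD, n = 3 each). In Sgo1-/+, its level of 171 ± 25.3 stood above Snhg12 (68.3 ± 10.1) and below Gas5 (286 ± 19.98). Snhg12 and Snhg5 did not differ beyond their spread in either group. For the averages over the 6 libraries, the mean transcript length in place of the merged exons gave the same order. The comparisons within each genotype rest on the merged exons, and they can change with the length used.

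The spread over the 6 libraries differed among the hosts. The highest value exceeded the lowest 1.35-fold for Snhg11, 1.55-fold for Gas5, 1.79-fold for Snhg12, 2.08-fold for Snhg5, 2.48-fold for Snhg3 and 6.23-fold for AA465934. WT replicate 2 was the highest WT library in 5 of the 5 other hosts, and WT replicate 3 the lowest WT library in 4. For AA465934 the lowest WT library was also replicate 3, but no shared order is read from 1 matching place among 3 libraries. The highest WT library for AA465934 was replicate 1, the library with cerebellar and brain stem RNA. Set against each gene's median library, the log2 ratio had a median over the 5 hosts of 0.52 in WT replicate 2 and −0.24 in WT replicate 3. In the 3 Sgo1-/+ libraries it was between −0.09 and 0.08.

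The question was then put to other hosts in the annotation. Of 30 other genes that code for no protein by annotation and hold a snoRNA gene, 17 were tested. Their median log2 fold change was −0.06, with 6 positive and 11 negative values. With an unadjusted p under 0.05 there were 0 higher and 1 lower in Sgo1-/+, against 0.808% higher and 1.23% lower over all genes. Groups did not overlap for 0 higher and 2 lower, against 3.28% higher and 3.57% lower over all genes. For 17 genes, the counts of 0 higher are near these shares, so they are not read as a result about the noncoding hosts. The highest log2 fold change in the list was 0.33, for Gm26512 (SE 0.417). The median of the 17 was −0.09 without WT replicate 1, 0.08 without WT replicate 2 and −0.19 without Sgo1-/+ replicate 1.

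The lower one was 2700038G22Rik, a noncoding host of 1 snoRNA gene that the deposited table calls AC117663.1. Its normalized counts were 18.1, 17.5 and 23.5 in WT and 9.24, 6.08 and 6.14 in Sgo1-/+, so every Sgo1-/+ library was below every WT library. Its log2 fold change was fitted at −1.45 (SE 0.354), and at −1.50 (SE 0.458) without WT replicate 1. It did not pass after adjustment (adjusted p = 0.9999 by edgeR's quasi-likelihood test). All its Sgo1-/+ values were under 10, so it passed the filter on low counts through the WT libraries alone, and nothing is read from its count as the 1 lower host. The other host without overlap was Cct6a, which encodes a chaperonin subunit although the annotation types it as noncoding, with a log2 fold change of −0.05 (SE 0.0889), or −0.06 (SE 0.0860) without WT replicate 1.

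Better known members of this list stayed within their spread. Zfas1 had 320, 472 and 250.8 normalized counts in WT and 430, 305 and 233 in Sgo1-/+. Rian, the imprinted host of a snoRNA cluster, had a log2 fold change of 0.02 (SE 0.119) at counts between 6126 and 7113. Log2 fold changes were −0.10 for Snhg15 (SE 0.358), 0.14 for Snhg17 (SE 0.382) and 0.02 for Snhg18 (SE 0.345).

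**Figure D3:**
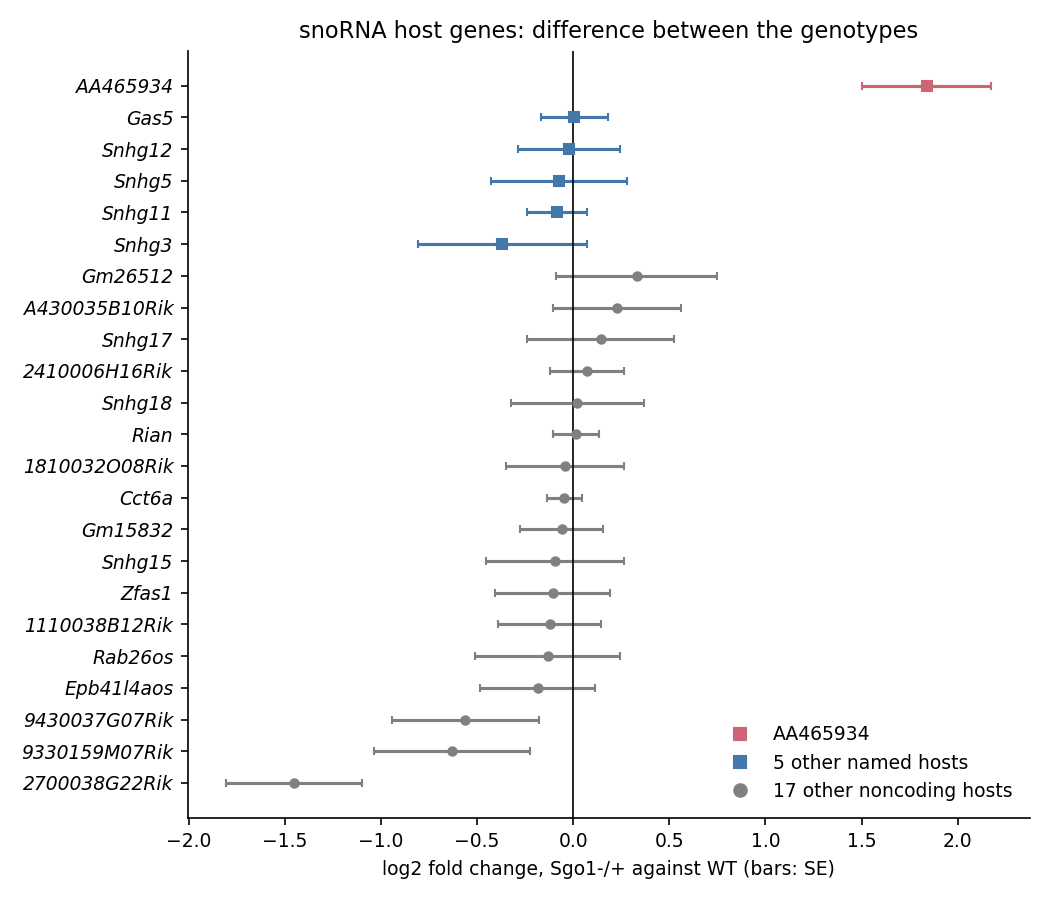
Log2 fold change of Sgo1-/+ against WT for AA465934, the 5 other named hosts and 17 other noncoding hosts. Points are fitted values, bars are standard errors, and the vertical line marks 0. AA465934 lies at 1.84 and the 22 other hosts lie between −1.45 and 0.33.

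Hosts that code for proteins were counted in the same way. Of 30 ribosomal protein genes that hold snoRNAs, 0 had an unadjusted p under 0.05, against 2.04% of all genes, and the median log2 fold change was −0.0072. Of 196 other coding hosts tested, 1 was higher and 2 were lower at an unadjusted p under 0.05 (1.53% in all, against 2.04% of all genes), with a median of −0.0035. That count of 3 became 11 without WT replicate 1 and 10 without WT replicate 3, while the share over all genes was 3.77% and 6.21%. The higher one was Sf3b3, a subunit of the SF3b splicing complex, with 909, 817 and 972 normalized counts in WT and 1025, 1074 and 1127 in Sgo1-/+ (log2 fold change 0.26, SE 0.107). With WT replicate 1 left out it was at 0.27 (SE 0.112). An unadjusted p under 0.05 was reached in only 3 of 14 alternatives, and not by DESeq2, the likelihood ratio test or limma. The lower ones were Cdh18, a cadherin, at −0.50 (SE 0.141), and Gm45713, which the deposited table calls Flt3l, at −0.999 (SE 0.368). Gm45713 was low in counts, with means of 37.1 in WT and 18.3 in Sgo1-/+. Every gene whose annotated span holds a snoRNA gene on the same strand was listed as a host. Overlapping genes can thus hold the same snoRNA gene, and whether Gm45713 does was not examined. In the fit without WT replicate 1, Cdh18 was at −0.37 (SE 0.120) with an unadjusted p of 0.0170, and Gm45713 at −0.81 (SE 0.414) with an unadjusted p of 0.0900, past the threshold no longer, by edgeR's quasi-likelihood test. Gm45713 was also past it no longer without WT replicate 3 and without Sgo1-/+ replicates 2 or 3. The adjusted p-values of these 3 genes were 0.9999 by edgeR's quasi-likelihood test.

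The proteins that bind and process snoRNAs, and those of nonsense-mediated decay, were listed as the other genes of the pathway. Of 19 snoRNA-protein complex genes, 0 had an unadjusted p under 0.05 and 0 had groups that did not overlap, against 2.04% and 6.85% of all genes, and the median log2 fold change was −0.02. Of 14 genes of nonsense-mediated decay, 0 had an unadjusted p under 0.05, with a median of −0.03. Without WT replicate 1, 0 of the 19 and 1 of the 14 had an unadjusted p under 0.05 (3.77% of all genes). Without WT replicate 3, 1 of the 19 and 2 of the 14 had one (6.21% of all genes). Of the 14, 1 had groups that did not overlap, against 6.85% of all genes. This was Upf1, the central helicase of that decay, with 772, 684 and 721 normalized counts in WT and 834, 844 and 825 in Sgo1-/+ (log2 fold change 0.20, SE 0.0957, unadjusted p = 0.0735 by edgeR's quasi-likelihood test). With WT replicate 1 left out, Upf1 was at 0.25 (SE 0.0940, unadjusted p = 0.0318 by edgeR's quasi-likelihood test). That was the only 1 of 14 alternatives in which its unadjusted p was under 0.05.

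**Figure D4:**
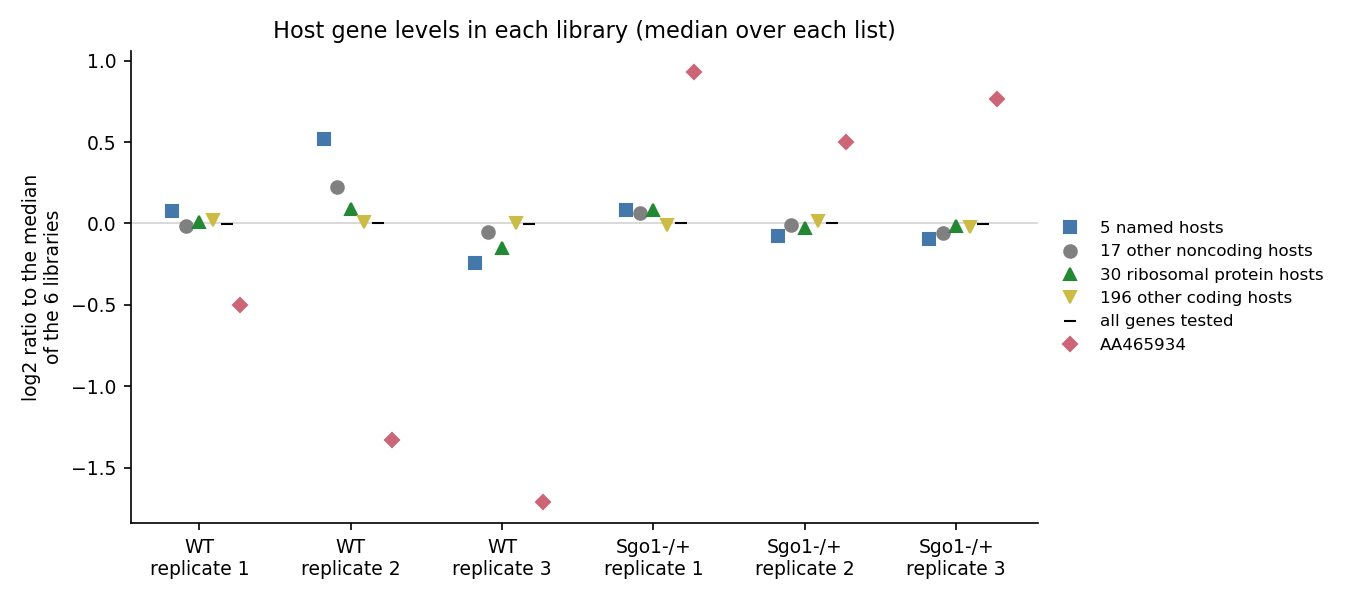
Log2 ratio of each library to a gene's median library, as the median over each list of host genes. Symbols mark the list, the grey line marks 0, and AA465934 is drawn as a single gene. The 5 named hosts sit at 0.52 in WT replicate 2 and at −0.24 in WT replicate 3, and the 196 other coding hosts stay near 0 in every library.

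The other lists of hosts were read library by library too. WT replicate 2 was the highest of the 6 libraries in 7 of the 17 noncoding hosts (41.2%) and in 12 of the 30 ribosomal protein hosts (40.0%). It was the highest in 16.3% of the other coding hosts and in 18.25% of all genes tested. The median log2 ratio in WT replicate 2 was 0.23 for the noncoding hosts and 0.09 for the ribosomal protein hosts. In WT replicate 3 these medians were −0.05 and −0.15. No cause of this difference between WT libraries was tested.

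The bases around the RefSeq transcript start (GRCm38.p6) are shown for AA465934 and 3 other hosts. A run of C or T at the start itself marks the class of genes named above. Each sequence runs from 10 bases before the start, and the capital is the first transcribed base.
AA465934 (chr11:83291689-83291718, plus strand): ggggctgtggGatgcaggcccgaagaggcg
Gas5 (chr1:161035156-161035185, plus strand): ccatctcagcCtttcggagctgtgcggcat
Snhg12 (chr4:132308668-132308697, plus strand): ttctcagtccTttctcgcttcatccgcggt
Snhg5 (chr9:88522878-88522907, minus strand): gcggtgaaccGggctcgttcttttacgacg
The longest run of C or T on the transcribed strand of these 30 bases was 3 for AA465934, 6 for Gas5 at this start and 3 at its other one, 9 for Snhg12 and 7 for Snhg5. It was 5 for Snhg3 and 3 for Snhg11. The run was sought anywhere in these bases. In Gas5 at the start shown and in Snhg12 it includes the first transcribed base. At the RefSeq starts used here, Snhg5 and Snhg3 start with a G and their runs lie further on, so these runs do not mark that class. The GENCODE model of Snhg5 reaches to base 88522929, upstream of the bases shown. Starts other than those of RefSeq were not examined, so whether Snhg5 and Snhg3 belong to that class was not tested. A run of at least 5 was found in 46.4% of all 32851 promoters, with a median of 4, so such a run sets no gene apart by itself.

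Genes near AA465934 were read to see whether the difference extended along the chromosome. Ap2b1, an adaptor subunit of clathrin coats, lies 4392 bases after AA465934 and was fitted at a log2 fold change of 0.26 (SE 0.176), while Rasl10b was at 0.17 (SE 0.368). With WT replicate 1 left out they were at 0.10 (SE 0.110) and −0.17 (SE 0.145). On the other side the nearest tested genes were of the Schlafen family. Slfn2, 221021 bases before, had a log2 fold change of −0.80 (SE 0.311, unadjusted p = 0.0375 and adjusted p = 0.9999 by edgeR's quasi-likelihood test), with every Sgo1-/+ library below every WT library. Its unadjusted p was under 0.05 in 8 of 14 alternatives. Slfn8 was at −0.56 (SE 0.362) and Slfn9 at 0.17 (SE 0.224). In the fit without WT replicate 1, Slfn2 was at −0.85 (SE 0.357), Slfn8 at −0.70 (SE 0.406) and Slfn9 at 0.18 (SE 0.256).

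The genes most like AA465934 over the 6 libraries were found by the root mean square distance between log2 CPM values (counts scaled to library size), each gene centred on its own mean. They were Fam183b (0.485), Ccdc121 (0.496), Gm6793 (0.499), Nuf2 (0.503), a kinetochore gene, and Stab2 (0.511), a scavenger receptor of sinusoidal endothelium. All 5 are low in counts, with WT means between 5.22 and 15.7 and Sgo1-/+ means between 15.7 and 31.2 normalized counts. Since AA465934 was selected on its difference between the groups, the genes nearest to it were bound to share that difference. Ccdc121, Gm6793 and Stab2 were under 10 in every WT library, so they passed the filter on low counts through the Sgo1-/+ libraries alone. Nothing is therefore read from this list. The 5 other hosts were at distances between 0.955 (Gas5) and 1.16 (Snhg3), against a median of 1.02 for all 16336 genes ranked. Gas5 ranked 3046 and Snhg3 ranked 13887. With each group's mean removed first, none of the 5 nearest genes was shared.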

How the data were processed

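The authors used Strand NGS for the alignment to mm10 and deposited an estimated count per gene and library, without normalization. The submitters' processing notes also name BWA and edgeR. The authors deposited further columns that were not used here, namely DESeq-normalized values on a log2 scale centred on each gene's median, and their own comparison as a log2 fold change, a signed score and a fold ratio. Table columns carry no sample titles: their group was taken from the name and direction of the deposited fold change, and their replicate number from the library number in the column name. The counts of Xist and Ddx3y matched the labelled sex in 6 of 6 libraries. Gene models came from GENCODE M21 on GRCm38, which holds 36308 of the 38087 gene IDs.

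Estimated counts were rounded and fitted with the quasi-likelihood test of edgeR 4.0.16 in R 4.3.3 (TMM, default filter, no covariates, all 6 libraries), with Benjamini-Hochberg adjustment over the 16337 genes tested and a threshold of 0.05. Dividing by each TMM-scaled library size, relative to the mean over the 6 libraries, gave the normalized counts. The 95% intervals come from the same fit. DESeq2 1.42.0, edgeR's likelihood ratio test, limma 3.58.1 on log2(normalized count + 1), other filters and scalings, sex, a replicate block and each library left out were alternatives. The fits were tested on simulated counts. With 20 groupings of the libraries, an exact permutation test (two-sided) can give no p under 0.1. Limits on a count of 0 (3 counts) cover counting error only. The p-values set the difference between the groups against the spread between mice within a group, and that difference includes any effect of the run.

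The hosts and lists were chosen with earlier results of these data known. Genes named are the hosts, the snoRNA genes in them, genes overlapping them, the 3 nearest tested genes on each side of AA465934 (1 of them is not reported here), the 5 most like it, Sgo1, and in each list up to 6 genes with an unadjusted p under 0.05 and groups that do not overlap. Gm26512, Cct6a, Zfas1, Rian, Snhg15, Snhg17, Snhg18, Upf1, Gm5900, Ablim3 and Gm13841 were added after their values were seen.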

Additional observations from a re-analysis of the deposited data

How the results depend on the processing

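AA465934 kept its direction under all 14 alternatives. This is no test, since every Sgo1-/+ library was above every WT library and the direction could not reverse on these counts. Its log2 fold change was between 1.83 and 1.90 under other tools, filters and covariates. With a library left out, it was between 1.61 (without WT replicate 3) and 2.26 (without WT replicate 1). Genes with an adjusted p under 0.05 numbered 0 in the quasi-likelihood test, 3 by DESeq2, 2 by edgeR's likelihood ratio test, and from 0 to 1 with a library left out (Gm13841, without Sgo1-/+ replicate 2). The first of these counts holds Gm5900 and Ablim3 and the second Gm5900, and each holds AA465934, for which it is no test, since that gene was selected on this difference. Genes with an unadjusted p under 0.05 numbered 333, 563 with no filter on low counts, and from 240 (without Sgo1-/+ replicate 2) to 1040 (without WT replicate 3) with a library left out. The sign of hosts near 0 was not fixed: with a library left out, the log2 fold change went from −0.186 to 0.0299 for Snhg11, from −0.16 to 0.13 for Gas5, from −0.17 to 0.31 for Snhg12 and from −0.40 to 0.17 for Snhg5, and for Snhg12 it was 0.0198 by limma. Snhg3 stayed negative in 13 of 13, between −0.76 (without Sgo1-/+ replicate 1) and −0.14 (without Sgo1-/+ replicate 2) with a library left out. The median of the 17 other noncoding hosts went from −0.189 to 0.0771 with a library left out, and their count at an unadjusted p under 0.05 was 0 in place of 1 with at least 10 counts required in every library, since 2700038G22Rik was then not tested. Of 30 ribosomal protein hosts, from 0 to 2 had an unadjusted p under 0.05 under the alternatives. The causes were not tested.

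By the labels, same-numbered mice share only a number. Their deviations from the group means correlated at −0.15, 0.01 and −0.21 across genes, which cannot show whether any pairing existed. With the replicate block, 280 genes had an unadjusted p under 0.05, AA465934 was at 1.90 and Snhg12 at 0.0196. No library correlated best with the library of its own number in the other group. At 11123917 to 12505561 counts per library, no snoRNA gene in the hosts passed the filter on low counts.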
